A study of Mus musculus with 2 samples.

Results

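The 9 genes described here encode small leucine-rich proteoglycans of the extracellular matrix: Dcn (decorin), Bgn (biglycan), Aspn (asporin), Lum (lumican), Fmod (fibromodulin), Prelp, Omd (osteomodulin), Ogn (osteoglycin) and Podn (podocan). They were taken by symbol from the 55450 gene rows of 2 single-cell RNA-seq libraries, and each of the 9 symbols matched 1 row in both. The libraries hold cells of the aorta of Apoe-/- mice, 12 weeks old, with an aneurysm of the abdominal aorta that followed angiotensin II. The genotype removes apolipoprotein E, a protein that clears cholesterol-rich particles from plasma, and angiotensin II, a vasoconstrictor peptide, is a common way to bring on aneurysms in such mice. The series sets DMSO, a solvent, against an inhibitor, and the letters in the sample titles were read as these 2 groups. Both groups share the genotype, the age and the angiotensin II aneurysm, and each holds 1 library. Which inhibitor it was, its dose and schedule, and how many animals a library pools are not stated in the labels. With 1 library per group no test was possible, and no value below has a p-value or a spread between animals.

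Small leucine-rich proteoglycans are short, curved proteins of leucine-rich repeats that are secreted and bind collagen fibrils, and many carry chondroitin, dermatan or keratan sulfate chains. Decorin, biglycan and asporin form class I of the family, lumican, fibromodulin, Prelp and osteomodulin class II, and osteoglycin belongs to class III, with podocan in a separate class. In the vessel wall they are known for setting the diameter and spacing of collagen fibrils, for binding TGF-beta, and, once released from the matrix, for signalling through Toll-like receptors. Decorin is a familiar product of adventitial fibroblasts, and biglycan one of smooth muscle cells.

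Most of these genes lie beside relatives (coordinates on GRCm38). Aspn (13:49544443-49567565), Omd (13:49582462-49592822) and Ogn (13:49608046-49624501) follow each other on the plus strand of chromosome 13, after the related gene Ecm2, with no other coding gene between. Dcn (10:97479609-97518143) and Lum (10:97565128-97572703) stand side by side on the plus strand of chromosome 10, before Kera and Epyc. Prelp (1:133910304-133921414, minus strand) lies between Optc and Fmod (1:134037254-134048277, plus strand). Bgn (X:73483602-73495933, plus strand) and Podn (4:108014791-108096445, minus strand) have no relative next to them. RefSeq windows upstream of the start (GRCm38.p6) were found for 7 of the 9 members, and none for Dcn and Lum. The 250 bases before the start are shown for the chromosome 13 neighbours Aspn, Omd and Ogn, whose levels parted between the libraries, and for Fmod, whose level differed most of the 9 in fibroblast-like cells. All 4 are on the plus strand, at chr13:49544193-49544442 for Aspn, chr13:49582212-49582461 for Omd, chr13:49607765-49608014 for Ogn and chr1:134037004-134037253 for Fmod. Capitals mark matches on either strand to TATAAA (the TATA box) in Aspn and Ogn and to CAGAC (the core of a Smad binding element) in Fmod.
Aspn: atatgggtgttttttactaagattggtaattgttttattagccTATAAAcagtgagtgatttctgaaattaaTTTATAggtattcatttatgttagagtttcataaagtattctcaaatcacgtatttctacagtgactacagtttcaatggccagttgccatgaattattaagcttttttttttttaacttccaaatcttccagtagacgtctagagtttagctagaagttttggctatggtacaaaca
Omd: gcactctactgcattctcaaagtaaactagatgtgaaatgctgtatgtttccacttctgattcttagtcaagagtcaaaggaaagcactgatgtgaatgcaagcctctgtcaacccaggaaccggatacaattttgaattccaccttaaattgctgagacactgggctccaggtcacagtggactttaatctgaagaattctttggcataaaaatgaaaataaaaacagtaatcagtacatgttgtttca
Ogn: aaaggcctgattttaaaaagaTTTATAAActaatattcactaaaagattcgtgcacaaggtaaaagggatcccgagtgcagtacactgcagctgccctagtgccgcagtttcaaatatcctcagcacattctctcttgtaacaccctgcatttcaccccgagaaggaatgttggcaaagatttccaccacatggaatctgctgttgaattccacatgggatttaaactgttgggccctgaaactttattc
Fmod: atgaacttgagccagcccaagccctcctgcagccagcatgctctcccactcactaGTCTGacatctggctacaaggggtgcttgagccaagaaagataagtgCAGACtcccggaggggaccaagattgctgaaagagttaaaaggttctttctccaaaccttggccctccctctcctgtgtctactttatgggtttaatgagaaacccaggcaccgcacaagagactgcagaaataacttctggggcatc
Aspn and Ogn each held 2 matches to TATAAA, overlapping in Ogn, and 12.4% of the 32817 windows of the same length held at least 1. The matches began 207 and 178 bases before the start in Aspn and 229 and 227 bases before it in Ogn. Fmod held 2 matches to CAGAC, a short string found in 42.2% of windows. Omd held no match to these motifs, nor to TGANTCA (AP-1, in 6.75% of windows) or the NF-kappa-B-like string of GGG and CC with any 5 bases between (in 45.8%). Such a match is a description of the letters and does not show that a factor binds.

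Unique molecular identifiers (UMIs) count captured transcript ends, and there were 101139161 of them over 9125 barcodes in the DMSO library and 79648307 over 8149 barcodes in the inhibitor library. After filtering 8411 and 7417 cells remained, with medians of 7935 and 8991 UMIs. Cells fell into 32 clusters, of which 27 were named by markers in 11 classes, and 16 barcodes occurred in both libraries. The 5 unnamed clusters, with 938 and 521 cells and medians of 848 and 797 UMIs, also held members (Dcn at 4058 and 5189 CPM) and enter no comparison between the libraries. Markers of smooth muscle, endothelium and adventitial fibroblasts were present in both, as the tissue label implies. Smooth muscle-like cells were 9.75% of the DMSO and 43.2% of the inhibitor cells, fibroblast-like cells 23.9% and 25.8%, and adipocyte-like cells 9.81% and 1.12%. Levels are UMIs of a gene per 1000000 UMIs (CPM) summed over the cells of a class or cluster in 1 library, with no division by gene length. A gene is compared here between cells and not with another gene. The 95% intervals are exact and cover counting error only.

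Dcn, the class I proteoglycan that binds collagen I and TGF-beta, was at its highest in fibroblast-like cells, at 13253 CPM in the DMSO and 13709 CPM in the inhibitor library. No other named class passed 1791 CPM, the level of DMSO adipocyte-like cells. Immune cells, which should lack the gene, differed among themselves in how much of it they held. T cell-like cells were at 678 CPM in the DMSO and 131.5 CPM in the inhibitor library, macrophage-like cells at 144 and 99.0 CPM and dendritic-like cells at 135 and 111 CPM. Neutrophil-like cells were at 375 CPM in the DMSO and 195 CPM (17 UMIs) in the inhibitor library. Smooth muscle-like cells, at 669.8 and 146.8 CPM, were thus close to T cell-like cells in both libraries. They were above macrophage-like and dendritic-like cells, by far more in the DMSO library. Against neutrophil-like cells they were above in the DMSO and below in the inhibitor library. After each cell was thinned to 3000 UMIs, 38.1% of DMSO and 19.7% of inhibitor smooth muscle-like cells held a Dcn UMI. The same share was 40.4% and 29.1% in T cell-like, 33.6% and 24.4% in macrophage-like and 27.6% and 19.7% in dendritic-like cells. Thinning dilutes free RNA more in deeper cells, so these shares cannot tell Dcn of smooth muscle-like cells from free RNA. The clusters of the class differed, with 54.6% and 33.5% in cluster 9 and 21.3% and 17.9% in cluster 0. Thinning left out 56 and 142 smooth muscle-like and 47 and 12 T cell-like cells. Before thinning, the shares were 72.8% and 52.2% in smooth muscle-like cells (median 13786 and 11168 UMIs per cell) and 56.0% and 45.5% in T cell-like cells (median 4048 and 4008 UMIs).

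Bgn, the other class I member with chondroitin or dermatan sulfate chains, was the broadest of the family. It was highest in smooth muscle-like cells of the DMSO library (4921 CPM), then in DMSO fibroblast-like cells (3698 CPM), and in the inhibitor library the order of these 2 classes was the reverse, at 2757 and 2898 CPM. Endothelial-like cells followed at 1105 and 1518 CPM. Within them the level was concentrated in the cluster led by Cytl1 and Gja5, genes of arterial endothelium, at 2398 CPM in the DMSO and 2408 CPM in the inhibitor library, while the capillary cluster led by Gpihbp1 was at 144 and 142 CPM. T cell-like cells were at 249 and 135 CPM.

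Aspn, a class I member without a glycosaminoglycan chain that binds collagen and TGF-beta, was at 187 CPM in DMSO and 128 CPM in inhibitor fibroblast-like cells and at 63.7 and 64.6 CPM in smooth muscle-like cells. Its highest level in both libraries lay in 1 smooth muscle-like cluster, number 14, which held Pln (phospholamban, a regulator of calcium uptake) at 215 and 110.5 CPM. Aspn was at 344 and 311 CPM there, against 23.4 to 72.6 CPM in the other 3 smooth muscle-like clusters.

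Lum, the class II keratan sulfate proteoglycan of collagen fibrils, was at 2147 and 2055 CPM in fibroblast-like cells. Its level in smooth muscle-like cells was 887 CPM in the DMSO and 115 CPM in the inhibitor library, with 211 and 38.1 CPM in T cell-like and 49.6 and 21.4 CPM in macrophage-like cells. Fmod, its close relative, was at 75.1 and 306 CPM in fibroblast-like cells and at 28.8 and 5.15 CPM in smooth muscle-like cells. The T cell-like values of Fmod were 20.6 CPM in the DMSO library and 0 UMIs in the inhibitor library, where 3 counts would be 10.4 CPM. Omd, known from bone and tooth matrix, had the fewest UMIs, with 15.3 and 54.2 CPM in fibroblast-like cells and 9.38 and 12.4 CPM in smooth muscle-like cells.

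Prelp, a class II member that binds basement membrane perlecan, was the only member whose highest level lay outside fibroblast-like and smooth muscle-like cells. Lymphatic endothelial-like cells held it at 543 CPM (134 DMSO cells) and 625 CPM (86 inhibitor cells). Fibroblast-like cells were next at 284 and 356 CPM, then smooth muscle-like cells at 179.8 and 162 CPM, and no other named class passed 46.8 CPM. Ogn, the class III member, was nearly equal in fibroblast-like (571 and 983 CPM) and smooth muscle-like cells (553 and 972 CPM). It was also high in the Schwann-like cluster 23, at 1180 CPM (67 DMSO cells) and 1064 CPM (71 inhibitor cells), against 122 and 77.3 CPM in the other Schwann-like cluster, cluster 10. Podn, a collagen-binding member first known from podocytes, was at 122 and 188.5 CPM in fibroblast-like cells and at most 37.1 CPM in every other named class.

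**Figure D1:**
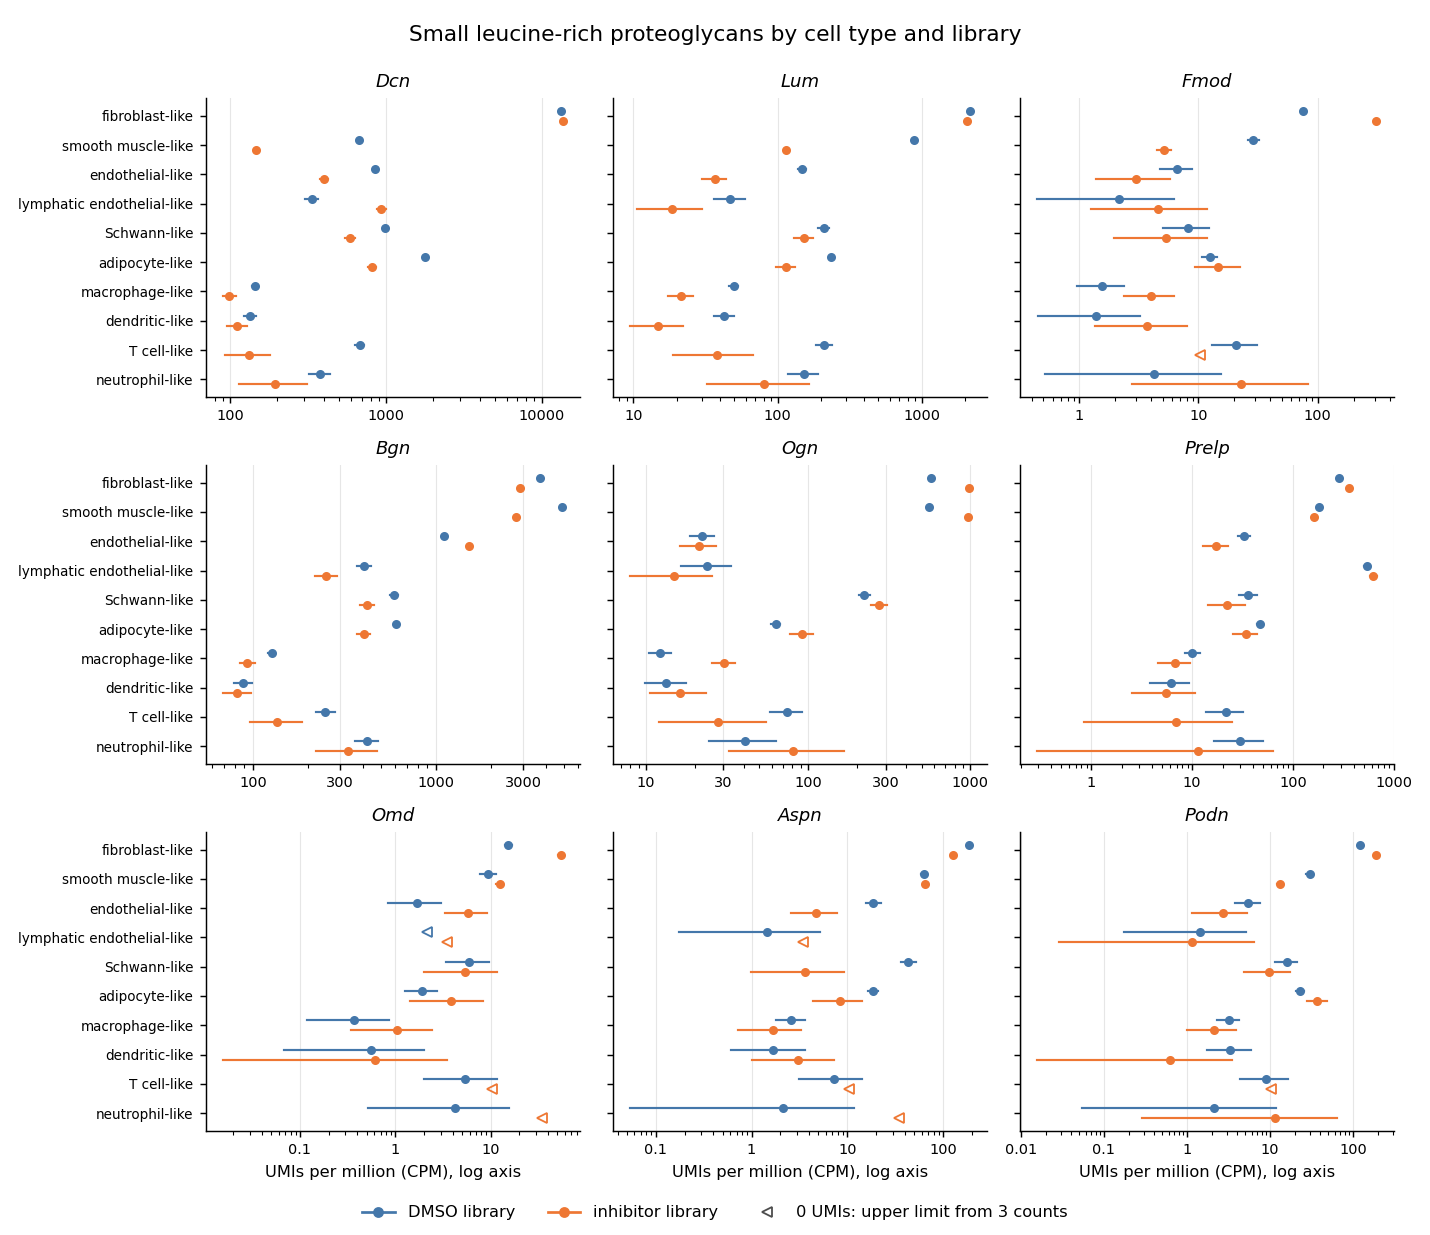
Level of each member in CPM (log axis, with its own range in each panel) by cell type, blue for the DMSO and orange for the inhibitor library, with exact 95% Poisson intervals from counts. Fibroblast-like cells lead for Dcn, Lum, Fmod, Omd, Aspn and Podn in both libraries, Bgn and Ogn are also high in smooth muscle-like cells, and Prelp leads in lymphatic endothelial-like cells; open triangles are limits from 3 counts where no UMI was seen.

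The comparison of the inhibitor with the DMSO library was made within fibroblast-like and smooth muscle-like cells, and both classes held different clusters in the 2 libraries. Of fibroblast-like cells, cluster 1 (led by Angptl7, F3, Sfrp2 and Rbp4, a retinol carrier) was 17.1% in the DMSO library (344 of 2009 cells) and 64.6% in the inhibitor library (1236 of 1914). Cluster 2 (led by the acute-phase gene Saa3, the protease gene Mmp3 and Timp1) was 44.4% and 9.88%. Cluster 3 (led by Clec3b, the chemokine gene Cxcl13 and C7) was 31.1% and 22.6%. Dividing cells in cluster 24 were 85 and 49 cells, and cluster 27 (Apod, Tenm2) 64 and 7 cells. Of smooth muscle-like cells, cluster 0 (Myh11, Cnn1, Sost) was 29.9% in the DMSO and 61.2% in the inhibitor library. Cluster 9 (Igfbp2, Tnfrsf11b, Ltbp2, Tnc) was 39.8% and 7.02%. It was the cluster of the class with the most Spp1 (osteopontin, a marker of modulated smooth muscle), at 2136 and 608 CPM. Whether a level differs because cells of a state are more or fewer or because a cell holds more or less RNA was therefore looked at within clusters.

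**Figure D2:**
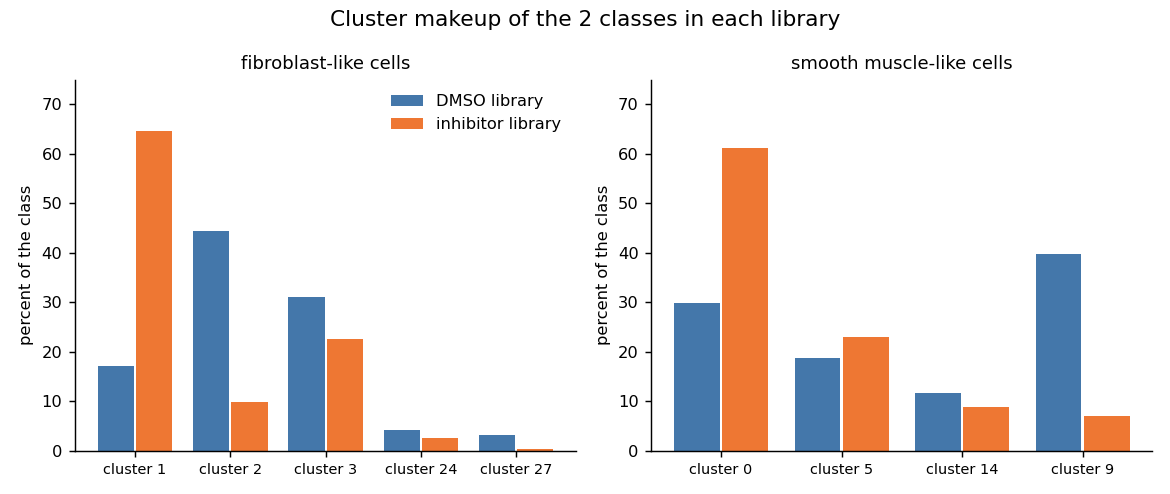
Percent of fibroblast-like cells (left) and smooth muscle-like cells (right) in each cluster, blue for the DMSO and orange for the inhibitor library, 1 library each. Cluster 1 holds 64.6% of inhibitor and 17.1% of DMSO fibroblast-like cells, and cluster 9 holds 7.02% of inhibitor and 39.8% of DMSO smooth muscle-like cells.

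In fibroblast-like cells 4 of the 9 members, Fmod, Omd, Ogn and Podn, were at least 1.5-fold higher in the inhibitor library, and none was 1.5-fold lower. To count as measured, a gene needed 20 CPM or more in either library and 50 UMIs in all. Of 6451 such genes 5.08% were that much higher and 7.66% that much lower. The median log2 ratio of the members (after adding 5 CPM) was 0.32, beside 0.0013 over all measured genes. Fmod was 4.08-fold higher (interval 3.90 to 4.26), Omd 3.55-fold (3.21 to 3.93), Ogn 1.72-fold (1.69 to 1.75) and Podn 1.55-fold (1.48 to 1.61). Dcn and Lum had ratios of 1.03 (1.03 to 1.04) and 0.957 (0.946 to 0.969), Prelp 1.25, Bgn 0.784 and Aspn 0.683, the last just inside the 1.5-fold limit. These ratios moved with the cluster makeup: with the clusters given the same weights in both libraries, none of the 9 passed 1.5-fold. Each weight was the cluster's share of the UMIs of the class over both libraries. Equal weights below mean these, equal between libraries and not between clusters. The ratio was then 1.47 for Fmod, 1.49 for Omd, 1.16 for Ogn and 0.996 for Podn, and 0.857 for Dcn and 0.791 for Lum. Prelp turned from 1.25 to 0.90.

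Within cluster 1 Fmod and Omd were the members at least 1.5-fold higher, and none was 1.5-fold lower. Of 6276 genes measured there, 2.66% were higher and 5.59% lower by that much. Fmod was at 385 CPM in the DMSO and 586 CPM in the inhibitor library (ratio 1.52, interval 1.43 to 1.62), and Omd at 62.0 and 95.2 CPM (1.54, 1.32 to 1.79). Rbp4 and Angptl7, which mark this cluster, were also higher in its inhibitor cells, at 2374 against 1175 CPM and 402 against 200.2 CPM. The thinned share of cluster 1 cells with a Fmod UMI was 42.5% in the DMSO and 54.4% in the inhibitor library (36 and 146 cells left out), against 1.55% of DMSO and 0 of 55 inhibitor T cell-like cells, which allows a share of up to 5.45% (3 counts of 55). Before thinning it was 62.3% and 68.0% in cluster 1 and 1.55% and 0% in T cell-like cells. The lower bounds of both ratios are under 1.5, so both calls sit at the limit.

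A finer clustering placed the Fmod-rich cells differently. Its cluster 0, led by Angptl7, F3 and Rbp4, held Fmod at 449 CPM in 190 DMSO cells and at 725 CPM in 788 inhibitor cells. Its cluster 3 took 225 DMSO cells, most of them from cluster 3 above, and 501 inhibitor cells, most from cluster 1. Fmod was at 222 and 201 CPM in these, so the difference lay in the Angptl7 cells alone among these 2 finer clusters.

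In the other fibroblast-like clusters Fmod was lower and its direction varied. Cluster 2 held it at 50.8 CPM in the DMSO and 68.2 CPM in the inhibitor library, and cluster 3 at 40.2 and 36.2 CPM. In the dividing cells of cluster 24 (85 and 49 cells) Fmod was 3.94-fold higher, at 18.7 and 73.7 CPM, and Aspn was lower, at 158 and 22.1 CPM, where 7.74% of 6864 genes were higher and 13.5% lower. No member passed 1.5-fold in cluster 2, where 4.75% of 6399 genes were higher and 5.77% lower. In cluster 3 Aspn alone did, at 149 and 91.1 CPM (ratio 0.609, 0.547 to 0.678), where 7.32% of 6328 genes were lower and 6.19% higher.

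Dcn, Lum, Bgn, Prelp and Aspn had ratios below 1, and Ogn ratios above 1, in each of clusters 1, 2 and 3, and of these Aspn in cluster 3 alone passed 1.5-fold. The Dcn ratio was 0.876, 0.788 and 0.890 in clusters 1, 2 and 3, and that of Lum was 0.729, 0.861 and 0.693. For Bgn it was 0.764, 0.862 and 0.679, and for Prelp 0.899, 0.907 and 0.884, against 1.25 over the whole class. The Ogn ratio was 1.19, 1.14 and 1.17. Podn had ratios of 0.976, 1.06 and 0.944, so that its class ratio of 1.55 appeared in none of the 3 large clusters. Podn was at 271 and 264 CPM in cluster 1 and at 82.2 and 87.1 CPM in cluster 2.

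**Figure D3:**
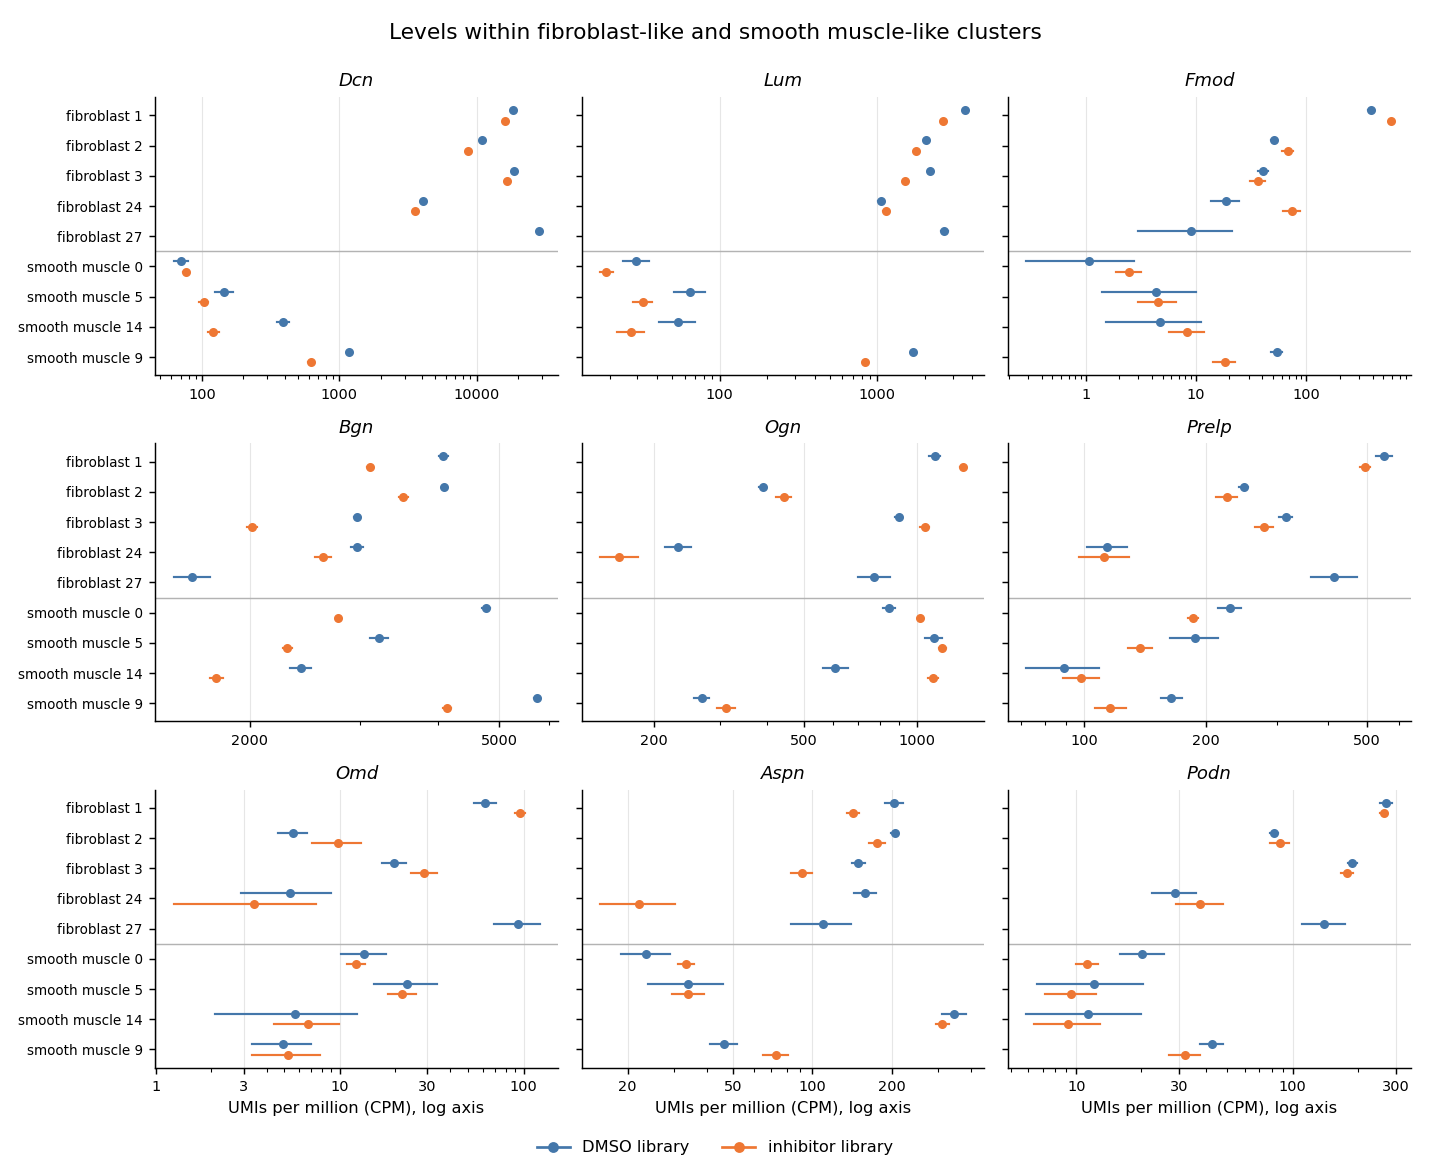
Level of each member in CPM (log axis, with its own range in each panel) in the 5 fibroblast-like and 4 smooth muscle-like clusters, blue for the DMSO and orange for the inhibitor library, with 95% counting intervals. Fmod peaks in fibroblast cluster 1 at 385 and 586 CPM, Lum and Dcn are higher in cluster 9 than in the other smooth muscle clusters of either library, and the inhibitor point of Bgn lies left of the DMSO point in each cluster drawn with both libraries; the 7 inhibitor cells of fibroblast cluster 27 are not drawn.

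In smooth muscle-like cells 8 of the 9 members were measured, Omd being under the limit. Of these 5 were at least 1.5-fold lower in the inhibitor library (Dcn, Lum, Fmod, Bgn and Podn) and Ogn alone was that much higher. Of the 6250 genes measured in the class 8.26% were lower and 3.42% higher. The members' median log2 ratio was -0.89, beside -0.05 over all measured genes. Lum had the lowest ratio, 0.130 (0.125 to 0.134), followed by Fmod at 0.179 (0.150 to 0.213) and Dcn at 0.219 (0.212 to 0.227). Podn was at 30.1 and 13.1 CPM (0.436, 0.38 to 0.50) and Bgn at 4921 and 2757 CPM (0.560, 0.555 to 0.566). Ogn was 1.76-fold higher (1.71 to 1.80), while Prelp and Aspn had ratios of 0.90 and 1.01. Dcn, Lum and Bgn also had ratios below 1 in T cell-like, macrophage-like and dendritic-like cells, by amounts that differed between classes. Ogn went the other way in macrophage-like cells, with a ratio of 2.48. Fmod and Podn were under the limit for being measured in these immune classes. The Dcn ratio was 0.194 in T cell-like, 0.686 in macrophage-like and 0.825 in dendritic-like cells. That of Lum was 0.181, 0.432 and 0.346, and that of Bgn 0.541, 0.737 and 0.927. The part of free RNA in the smooth muscle ratios was not tested. With the T cell-like and neutrophil-like level of each library taken off, the Lum ratio was 0.097. For Dcn that subtraction brought the inhibitor level of the class close to 0, so it gives no usable ratio, while cluster 9 alone held Dcn at 619 CPM there.

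Cluster 9, the Spp1-rich cells, carried most of the Lum of the class, 10636 of 10879 UMIs in the DMSO and 3668 of 4427 in the inhibitor library. Of Dcn it held 7366 of 8212 UMIs in the DMSO library but 2727 of 5643 in the inhibitor library, where cluster 0 had 1856. Lum was there at 1690 CPM in the DMSO (326 cells) and 833 CPM in the inhibitor library (225 cells), against 19.1 to 64.8 CPM in clusters 0, 5 and 14. Dcn was at 1171 and 619 CPM, against 70.5 to 391.5 CPM in the other clusters. Within cluster 9 Lum (ratio 0.493, 0.474 to 0.511), Dcn (0.529, 0.506 to 0.553) and Fmod (53.9 and 18.2 CPM; 0.337, 0.261 to 0.431) were at least 1.5-fold lower. Of 6268 genes measured in the cluster 4.77% were lower and 2.07% higher by that much. Aspn was the member that was higher, at 46.2 and 72.6 CPM (1.57, 1.34 to 1.85). The thinned share of cluster 9 cells with a Lum UMI was 59.7% and 46.6%, above the 18.1% and 7.27% of T cell-like cells. Before thinning it was 80.6% and 63.8% in cluster 9 and 28.0% and 12.7% in T cell-like cells. Thinning left out 11 and 4 cells of cluster 9.

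Fibroblast markers were also lower in the inhibitor cells of cluster 9. The 6 genes Pdgfra, Pi16, Clec3b, Scara5, Dpep1 and Dpt summed to 200.6 CPM in the DMSO and 76.3 CPM in the inhibitor library. Among cells with no UMI of any of the 6, which were 96 and 123 cells, Lum was at 1351 and 576 CPM, Dcn at 513 and 208 CPM and Fmod at 25.1 and 7.75 CPM. Lum, Dcn and Fmod were thus lower in the inhibitor library among these cells as well. Each was also below its level over all cells of cluster 9 in both libraries. The part of fibroblast RNA in these levels was not tested. Over the whole class the fibroblast marker list of 15 genes summed to 12335 and 6086 CPM, with none of the 15 at 0, and the smooth muscle list to 36572 and 50219 CPM.

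In the contractile cluster 0 Bgn was at 4772 CPM in the DMSO and 2770 CPM in the inhibitor library (ratio 0.581, 0.571 to 0.590). Lum (29.6 and 19.1 CPM) and Podn (20.2 and 11.2 CPM) were also 1.5-fold lower there, among 4.68% of 6088 genes, and no member was that much higher (2.87%). Dcn was at 70.5 and 76.0 CPM, under its T cell-like, macrophage-like and dendritic-like levels in both libraries. In cluster 5 Lum, with a ratio of 0.501, was the one member lower by at least 1.5-fold (64.8 and 32.5 CPM), where 9.65% of 6324 genes were lower and 4.92% higher. Bgn had a ratio of 0.714 in cluster 5, 0.719 in cluster 9 and 0.733 in cluster 14. It was thus below 1 in all 4 smooth muscle-like clusters and in the 4 fibroblast-like clusters compared, where it ran from 0.679 to 0.883. Ogn had ratios of 1.21, 1.06, 1.16 and 1.82 in clusters 0, 5, 9 and 14, and passed 1.5-fold in cluster 14 alone (608 and 1104 CPM), where Dcn (391.5 and 121 CPM) and Lum (54.0 and 27.2 CPM) were lower. In cluster 14, of which 96 DMSO and 281 inhibitor cells were kept, 5.26% of 6447 genes were higher and 22.1% lower by that much. With each cluster given the same weight in both libraries, the class ratio was 1.22 for Ogn, 0.638 for Bgn and 0.499 for Lum. It was 0.579 for Dcn and 0.659 for Podn.

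**Figure D4:**
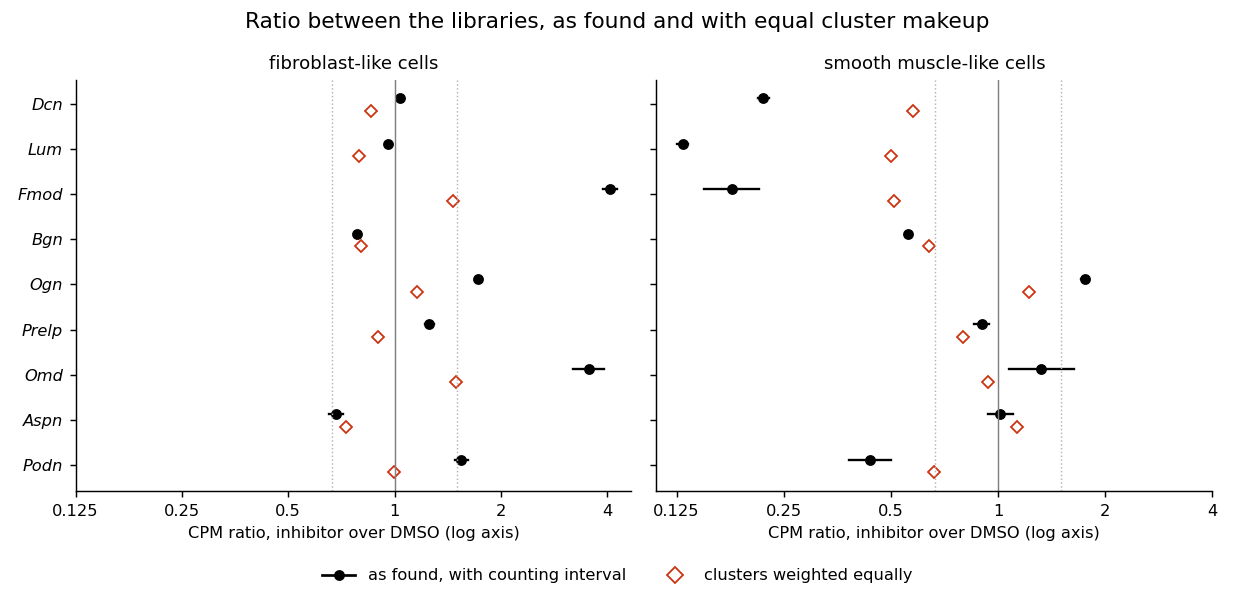
Ratio of CPM, inhibitor over DMSO (log axis), for each member in fibroblast-like (left) and smooth muscle-like cells (right). Black points with 95% counting intervals are as found, and dotted lines mark 1.5-fold. Open red diamonds give each cluster the same weight in both libraries, its share of the UMIs of the class over both. In fibroblast-like cells Fmod moves from 4.08 to 1.47, and in smooth muscle-like cells Lum moves from 0.130 to 0.499.

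Outside these classes fewer members passed the limit for being measured. In T cell-like cells 4 of 4 measured members (Dcn, Lum, Bgn and Ogn) were 1.5-fold lower in the inhibitor library, beside 14.9% of 4378 genes, with 6.85% higher. For Ogn the share of these cells with a UMI went the other way, at 7.08% of 240 and 11.9% of 67 cells. After thinning it was 4.66% and 10.9% (47 and 12 cells left out), so no order of Ogn is read there. Dcn, Lum and Prelp were lower of 5 in endothelial-like cells (9% of 7141 genes lower and 4.65% higher), and Dcn, Prelp and Aspn of 6 in Schwann-like cells (7.06% of 7581 lower and 6.66% higher). In adipocyte-like cells Dcn, Lum and Bgn were lower (9.57% of 6115 genes) and Podn was higher (22.9 and 37.1 CPM, 5.22%). Lum was lower in macrophage-like cells (ratio 0.432, among 4.09% of 6485 genes) and in dendritic-like cells (0.346, among 10% of 5965 genes, with 3.67% higher). Neutrophil-like cells, 239 and 51, had lower Dcn (0.519) and Lum (0.530, interval 0.206 to 1.15), where 16.5% of 1945 genes were lower and 11.6% higher. Higher calls in these classes were those of Podn above, of Ogn in macrophage-like cells and of Dcn in lymphatic endothelial-like cells. Ogn was at 12.2 and 30.2 CPM in macrophage-like cells (ratio 2.48, 1.97 to 3.12), where 3.44% of genes were higher. A UMI of it was held by 6.97% and 12.8% of these cells. Over all kept cells of a library Ogn was at 318 CPM in the DMSO and 805 CPM in the inhibitor library. The part of free RNA in the calls of the classes in this paragraph was not tested. Dcn in lymphatic endothelial-like cells was at 334.5 CPM in the DMSO and 937 CPM in the inhibitor library (2.80, 2.50 to 3.15), where 6.85% of 6453 genes were higher, while Lum and Bgn were lower (12.2%). The share of these cells with a Dcn UMI went the other way, at 68.7% of 134 and 59.3% of 86 cells, and at 47.7% and 35.4% after thinning (23 and 21 cells left out), so no order is read from either.

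Single cells held several members at once. After thinning to 3000 UMIs a fibroblast-like cell held UMIs of 4.91 of the 9 members on average in the DMSO and 5.54 in the inhibitor library (96 and 171 cells left out), and T cell-like cells 1.11 and 0.800. Before thinning the means were 6.51 and 6.86, and 1.53 and 1.18 in T cell-like cells. Cells with 5 or more members were 61.5% and 77.0% of fibroblast-like cells. Within clusters the libraries were closer, at 5.96 and 6.09 members per cell in cluster 1, 4.51 and 4.38 in cluster 2 and 5.06 and 4.86 in cluster 3. Smooth muscle-like cells held 2.98 and 2.66, and cluster 9 held 3.26 and 2.71.

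Across 50 points, each a cluster with at least 50 cells in 1 library, some neighbours on a chromosome ran together closely and others less. These correlations of log2(CPM + 5) are descriptions over points that share libraries and free RNA. The unnamed low-depth clusters 4, 15 and 25 are among the points. Neighbours Dcn and Lum had a Pearson r of 0.932, the highest among the pairs of members, and neighbours Ogn and Omd 0.792, the highest for either. Aspn, next to Omd, had r = 0.618 with it, and Prelp and Fmod 0.542. Podn, alone on chromosome 4, had r = 0.899 with Lum. Dcn and Ogn, the first spread over fibroblasts and the second over both classes, had r = 0.480.

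**Figure D5:**
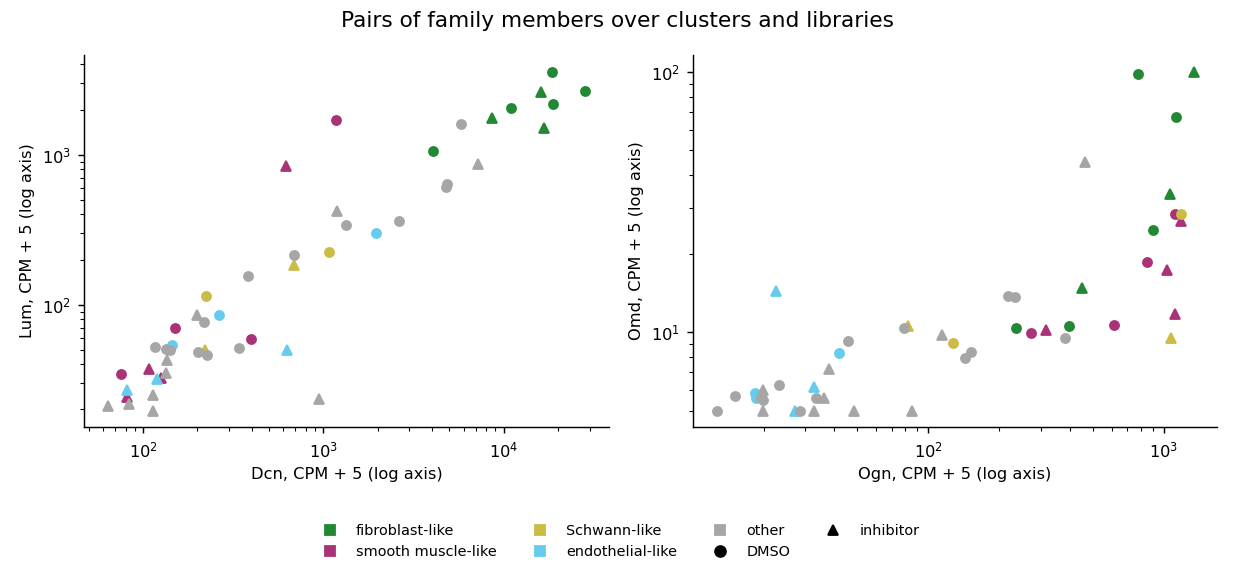
Each point is 1 cluster in 1 library (50 points with at least 50 cells; circles DMSO, triangles inhibitor; colours by cell type), with Lum against Dcn on the left and Omd against Ogn on the right, both axes log of CPM + 5. Dcn and Lum run together over the cell types (r = 0.932). The 2 points of smooth muscle cluster 9 (DMSO, inhibitor) lie at 1690 and 833 CPM of Lum and 1171 and 619 CPM of Dcn. Ogn is high in smooth muscle-like and fibroblast-like clusters while Omd is high in a few.

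The genes with the most similar pattern were named for each member from 8631 genes over the same 50 points. For Dcn they were Serpinf1 (r = 0.947), Bicc1 (0.939) and Clec3b (0.935), and for Lum Mmp2 (0.943), Pcolce (0.941) and Bicc1 (0.927). Bgn ran with Aebp1 (0.962), Mgp (0.961) and Pam (0.950), and Aspn with Ednra (0.917), Ddr2 and Prrx1 (both 0.908). Fmod was closest to Hhip (0.868), Prrx2 (0.816) and Pdgfrl (0.810). Omd was closest to Col4a4 (0.843), Col4a3 (0.794) and Pdlim2 (0.792). Ogn was closest to Rasl11b (0.924), Fat1 (0.882) and Fstl3 (0.875), Prelp to Foxp2 (0.921), Tnxb (0.905) and Sema3d (0.895), and Podn to Smoc2 (0.932), Medag (0.929) and Adamts2 (0.926).

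Few relatives outside the 9 members passed the limit for being measured in fibroblast-like and smooth muscle-like cells. Of Kera, Epyc, Optc, Chad, Chadl, Nyx, Tsku, Podnl1 and Ecm2, the genes Ecm2 and Tsku were measured in fibroblast-like and Ecm2 and Optc in smooth muscle-like cells, and none passed 1.5-fold. Ecm2, the neighbour of Aspn, was at 94.98 and 120.5 CPM in fibroblast-like and 90.6 and 123 CPM in smooth muscle-like cells. Optc (opticin), known from the vitreous body of the eye and the neighbour of Prelp, was at 95.8 and 133 CPM in smooth muscle-like cells. Chadl was at 113 and 125 CPM in Schwann-like cells and Podnl1 at 72.7 and 96.9 CPM in T cell-like cells.

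Counts of related genes are read beside those over all genes, of which 5.08% were higher and 7.66% lower in fibroblast-like cells (median log2 ratio 0.0013) and 3.42% and 8.26% in smooth muscle-like cells (median -0.05). Few of the collagens that these proteoglycans bind passed 1.5-fold in fibroblast-like cells. Of 11 measured none was higher and 2 were lower by 1.5-fold, Col5a3 (118 and 34.9 CPM) and Col12a1 (73.8 and 44.1 CPM), with a median log2 ratio of -0.20. In smooth muscle-like cells 8 of 11 were lower and none higher (median -0.89), led by Col5a3 (23.5 and 1.69 CPM), Col1a1 (3753 and 1208 CPM), Col1a2 (3683 and 1789 CPM) and Col12a1 (78.4 and 38.5 CPM). Within clusters fewer were lower, 3 of 11 in cluster 9, 6 of 11 in cluster 14 and none of 9 in clusters 0 and 5, and Col14a1 was higher in cluster 0. With each cluster given the same weight in both libraries 1 collagen was lower in each class. Col1a1 and Col1a2 were also lower in T cell-like, macrophage-like and dendritic-like cells, and the part of free RNA in these calls was not tested. Of 10 genes for collagen crosslinking and propeptide cleavage in fibroblast-like cells, Lox, Loxl2 and Bmp1 were lower and Pcolce2, an enhancer of propeptide cleavage, was higher (300.4 and 651 CPM). In smooth muscle-like cells 5 of 10 were lower, with Pcolce (144 and 50.5 CPM), Bmp1, Loxl2 and Lox lowest, and none higher. Pcolce was also lower in T cell-like and dendritic-like cells. None of the 10 was lower in fibroblast-like clusters 1, 2 and 3, and Pcolce2 was higher in clusters 1 and 3. In the smooth muscle-like clusters 0, 5, 9 and 14 the lower ones were 0, 0, 1 and 2. Some went the other way there: Pcolce2 was higher in clusters 0 and 5, Loxl2 in cluster 5, and Lox and Loxl1 in cluster 14.

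The enzymes that build the sugar chains were looked at next. Of 10 measured genes of chondroitin and dermatan sulfate synthesis in fibroblast-like cells, Csgalnact1 (40.2 and 18.9 CPM) and Chst11 (29.0 and 18.7 CPM) were lower and none was higher. Of 9 in smooth muscle-like cells, Chsy1, Chpf and Chpf2 were lower and Chst3 higher (31.1 and 52.2 CPM). Within clusters Csgalnact1 and Chst11 passed in none of fibroblast-like clusters 1, 2 and 3, Chsy1 was lower in cluster 0 and Chst3 higher in cluster 14. Both measured genes of the linker sugar passed 1.5-fold in neither class. Of 3 measured genes of keratan sulfate and tyrosine sulfation, B4galt1 was lower in smooth muscle-like cells (52.2 and 29.9 CPM), and none passed in fibroblast-like cells.

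Of 6 measured proteases that cleave the family 5 were lower in fibroblast-like cells (median log2 ratio -0.77) and none higher, with Adamts4 (24.8 and 7.61 CPM), Mmp14 (383 and 168 CPM), Adamts5 (408 and 215 CPM) and Mmp3 (2312 and 1485 CPM) lowest. In smooth muscle-like cells Mmp3 (101 and 15.97 CPM), Mmp2 (163 and 41.4 CPM), Mmp14 (181 and 50.5 CPM) and Ctsk (40.0 and 16.4 CPM) were lower of 5 measured. Mmp2 and Mmp3 were also lower in T cell-like, macrophage-like, dendritic-like, endothelial-like, lymphatic endothelial-like, Schwann-like and adipocyte-like cells. The part of free RNA in these calls was not tested. Mmp3 also leads fibroblast cluster 2, whose share differed between the libraries. Within fibroblast-like clusters fewer passed, 2 of 5 in cluster 1 (Mmp3 and Mmp14), 2 of 7 in cluster 2 (Adamts4 and Adamts5) and 1 of 5 in cluster 3 (Mmp14), and 1 was lower with clusters weighted equally. In smooth muscle-like clusters 0, 5, 9 and 14 the lower ones were 2 of 4, 3 of 5, 3 of 5 and 4 of 5, with Mmp2 and Mmp3 among them in each. Among receptors and ligands bound by the family, Bmp4 was higher in fibroblast-like cells (53.0 and 132 CPM), 1 of 10 measured. Of 11 in smooth muscle-like cells Tgfb2 (300.1 and 532 CPM) and Tgfb3 (104 and 202 CPM) were higher and Tgfb1 (44.6 and 21.1 CPM), Ccn4 and Egfr lower. Tgfb3 was higher in clusters 0, 5, 9 and 14 and Tgfb2 in all of these but cluster 9, while Bmp4 was higher in cluster 2 alone of fibroblast-like clusters 1, 2 and 3. Among other proteoglycans, Vcan (406 and 225 CPM), Prg4 (822 and 352 CPM) and Srgn (306.5 and 109 CPM) were lower and Spock2 (17.9 and 39.6 CPM) higher of 8 in fibroblast-like cells, and Prg4 and Acan (53.3 and 26.5 CPM) lower of 7 in smooth muscle-like cells. Vcan and Spock2 passed in none of fibroblast-like clusters 1, 2 and 3, while Prg4 was lower in clusters 1 and 3 and Srgn in clusters 2 and 3. Of smooth muscle-like clusters 0, 5, 9 and 14, Acan was lower in cluster 0 alone. Prg4 was lower in none of these and higher in cluster 9.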

How the data were processed

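The values deposited by the authors are whole UMI counts of each gene in each barcode of 2 libraries of aortic cells. Per the file headers they come from Cell Ranger 6.1.1, and per the labels' protocols from 10x 3' version 3 chemistry; GRCm38 and Seurat are named in the submitters' processing notes. Every deposited barcode holds at least 500 UMIs. Cells with under 200 genes (18 DMSO, 10 inhibitor) or over 20% mitochondrial UMIs (443, 282) were left out. Scrublet doublets (253, 440) were removed at the inhibitor library's threshold of 0.214, since the automatic DMSO threshold (0.659) called none. Both libraries were clustered with scanpy 1.11.5 on 2000 variable genes without the members and markers (30 components, 15 neighbours, Leiden resolution 1). Clusters were named from marker lists, needing 3 markers; the naming rule was revised once after clusters had been seen, and the first version is an alternative. Counts were summed and scaled to CPM; Poisson, conditional binomial and Clopper-Pearson intervals are exact. Log2 ratios add 5 CPM. Ratios were tested on simulated counts. Members and related lists were chosen with earlier results of these data known. Named genes are all members, up to 4 per list, class and direction past 1.5-fold, and 3 per member by likeness. Besides the settings used, 13 planned and 5 later alternatives were run. Gene positions are GENCODE's for GRCm38, which all 55450 rows match.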

Additional observations from a re-analysis of the deposited data

Results flagged for a closer look

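Fmod and Podn lay on opposite sides of 1.5-fold in the 2 classes compared. The Fmod ratio, inhibitor over DMSO, was 4.08 in fibroblast-like cells and 0.179 in smooth muscle-like cells. The Podn ratio was 1.55 in fibroblast-like cells and 0.436 in smooth muscle-like cells. With 1 library per group the difference between the classes was not tested. With each cluster given the same weight in both libraries the Fmod ratios were 1.47 and 0.509, and those of Podn 0.996 and 0.659.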

How the results depend on the processing

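No paired analysis was possible because each group holds 1 library and no result comes from a test. With each cluster given the same weight in both libraries, the count of members higher in fibroblast-like cells went from 4 to 0. That in smooth muscle-like cells went from 1 to 0, and the Podn ratio in fibroblast-like cells turned from 1.55 to 0.996. Finer clusters weighted equally, an alternative chosen after seeing the data, also gave 0 and 0, left 1 member lower in smooth muscle-like cells (Lum) in place of 5, and put Podn at 0.950. A filter of 50 CPM left 3 of these 5 (Dcn, Lum and Bgn), since it drops Fmod and Podn. Of the 260 ratios of single members under the alternatives, 142 stayed within their counting interval and 12 fell on the other side of 1, of which 2 are those of Podn above and 10 belong to ratios inside 1.5-fold. With equal weights these were Dcn (1.03 to 0.857) and Prelp (1.25 to 0.90) in fibroblast-like cells and Omd (1.32 to 0.938) in smooth muscle-like cells. Over all genes of smooth muscle-like cells, TMM scaling moved the median log2 ratio from -0.05 to 0.15 and the higher share of calls from 29.3% to 59.5% (46.7% with median-of-ratios scaling). The same 1 and 5 members were called under both. In fibroblast-like cells that share went from 39.9% to 46.4% and 49.5%, with the same 4 members. Without a filter on low values 3881 genes were higher and 4921 lower in fibroblast-like cells, against 328 and 494, and 1789 and 6444 in smooth muscle-like cells, against 214 and 516. A 50 CPM filter gave 206 and 254, and 143 and 227. Equal cluster weights gave 190 and 295, and 153 and 272; finer ones 185 and 269, and 150 and 223. Subtracting free RNA gave 619 and 383, and 413 and 424. TMM gave 473 and 322 in smooth muscle-like cells, and median-of-ratios scaling 343 and 391. Depth limits Omd in smooth muscle-like cells (115 and 477 UMIs) and cluster 24 (49 inhibitor cells).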
